A study of Homo sapiens with 11 samples.

Results

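miR-100 and miR-99a, a pair of microRNAs that share a seed, were compared directly with each other in Reh, a cell line from B-precursor leukaemia in which ETV6 is fused to RUNX1. The comparison used 6 of the 11 expression arrays of the series, namely the 3 arrays of cells given the miR-100 oligo and the 3 arrays of cells given the miR-99a oligo. Members were taken from the labels, and each miR-100 array was set against the miR-99a array with the same replicate number, without any control array. All cells of both groups had first been infected at a multiplicity of 2.5 transducing units per cell and cultured as a stable miR-125b-expressing line, so miR-125b was shared by both sides. They then received 66 µM (the amount in the labels) of a precursor oligonucleotide of miR-100 or of miR-99a with Lipofectamine, again after 72 h, and were harvested 48 h after the last addition. The other arrays, 3 with the combination at 33 µM of each oligo and 2 with a scrambled oligo as control, are given beside single genes as a background. Cells were grown in triplicate by the labels, which do not say whether the arrays came from separate transfections. The p-values therefore measure the spread between these arrays, which may be technical, in a single cell line.

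MicroRNAs guide Argonaute proteins to messenger RNAs, mainly through the seed, the bases that follow the first base at the 5′ end. Pairing outside the seed can add to target recognition. miR-100, miR-99a and miR-99b form a family with the same seed, and genes of the mTOR and insulin-like growth factor pathways are among its reported targets. miR-100 and miR-99a are each encoded in a cluster with a copy of miR-125b, and the study asked how these microRNAs bear on the killing of these cells by vincristine. This drug binds tubulin and blocks the assembly of microtubules.

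The mature sequences show how alike both oligos' products are. The following mature 5p arms are from RefSeq (GRCh38.p14), written 5′ to 3′, with the seed (bases 2 to 8) and base 16 in capitals.
miR-100-5p: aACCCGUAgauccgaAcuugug
miR-99a-5p: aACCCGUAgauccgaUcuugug
miR-99b-5p: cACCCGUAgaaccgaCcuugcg
Counted from 1 at the 5′ end and with the miR-99a base first, miR-100-5p differed from miR-99a-5p only by U16A, so 21 of 22 bases were identical and the seed was shared. miR-99b-5p, the third member, differed from miR-99a-5p by A1C, U11A, U16C and U21C. miR-100-5p lies at chr11:122152275-122152296 on the minus strand, miR-99a-5p at chr21:16539101-16539122 on the plus strand and miR-99b-5p at chr19:51692618-51692639 on the plus strand.

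The opposite arms of the same precursors and miR-125b-5p, which all cells expressed, follow with only the seed in capitals.
miR-100-3p: cAAGCUUGuaucuauagguaug
miR-99a-3p: cAAGCUCGcuucuaugggucug
miR-125b-5p: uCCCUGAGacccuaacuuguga
The 3p arms differed by C7U, C9U, U10A, G16A and C20A, again with the miR-99a base first, so they shared 17 of 22 bases and not the seed. miR-125b-5p has a seed of its own. How much of either arm the cells held was not measured on these arrays.

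Expression was nearly the same under both oligos. Of 19775 genes measured, 0 were higher and 2 were lower in miR-100 than in miR-99a cells at an adjusted p under 0.05, which is 0.0101% of the genes. The genes that fell were ND6, a mitochondrially encoded subunit of respiratory complex I, and FOLR1, the folate receptor alpha gene, and the fall of FOLR1 was not shared by all pairs. The median absolute difference was 0.04 on the log2 scale, 5 genes differed by more than 0.3, and 0 by more than 0.5. The test was limma's moderated test on log2 values with the replicate number as a block and Benjamini-Hochberg adjustment, and without that block 0 genes passed in either direction.

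The fit gave all genes the same standard error of 0.0824, so its interval is not a precision measured for each gene. The 95% interval thus reached 0.162 on the log2 scale to either side of each estimate. It lay within 0.3 of zero for 19220 genes (97.2%) and within 0.5 for 19773. Before adjustment, 242 genes (1.22%) had a p under 0.05, with 120 (0.607%) higher and 122 (0.617%) lower in miR-100. The miR-100 and miR-99a arrays did not overlap for 478 genes that were higher (2.42%) and 444 that were lower (2.25%) in miR-100. A gene's own differences over the 3 pairs had a median SD of 0.121 and a highest SD of 0.598, so the common standard error was wide for some genes and narrow for others.

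The arrays numbered 3 stood apart from the others within each treatment. Across genes, the difference between arrays of the same treatment had an SD of 0.131 for miR-100 and 0.12 for miR-99a between replicates 1 and 2, and of 0.24 to 0.248 where replicate 3 was one of the arrays. Arrays of opposite treatment with the same number differed by an SD of 0.109, 0.14 and 0.129, and 8, 5 and 4 genes differed by more than 0.5. The range between treatments overlapped that within a treatment, where replicates 1 and 2 differed by more than 0.5 in 12 genes for miR-100 and 23 genes for miR-99a. Array medians lay between 5.95 and 5.984 over all 11 arrays. Upper quartiles were 7.183, 7.153 and 7.306 on the miR-100 arrays 1 to 3, against 7.213, 7.263 and 7.242 on the miR-99a arrays.

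The 3 pairs did not share a common direction. Over all genes the median difference was -0.017 in pair 1, -0.052 in pair 2 and 0.05 in pair 3. Pairs 2 and 3 ran opposite to each other across genes (r = -0.397, with 32.0% of genes of the same sign), and pairs 1 and 2 were weakly alike (r = 0.132). These correlations describe genes of the same arrays, which are not independent replicates. They shrank to -0.084 and 0.026 after quantile normalization. Of 5 level ranges, the opposition was widest among genes with levels of 10 to 12, whose median was -0.036 in pair 1, -0.167 in pair 2 and 0.156 in pair 3, and genes with levels of 8 to 10 had -0.048, -0.163 and 0.144. Only 3153 genes (15.9%) moved in 1 direction in all 3 pairs.

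**Figure D1:**
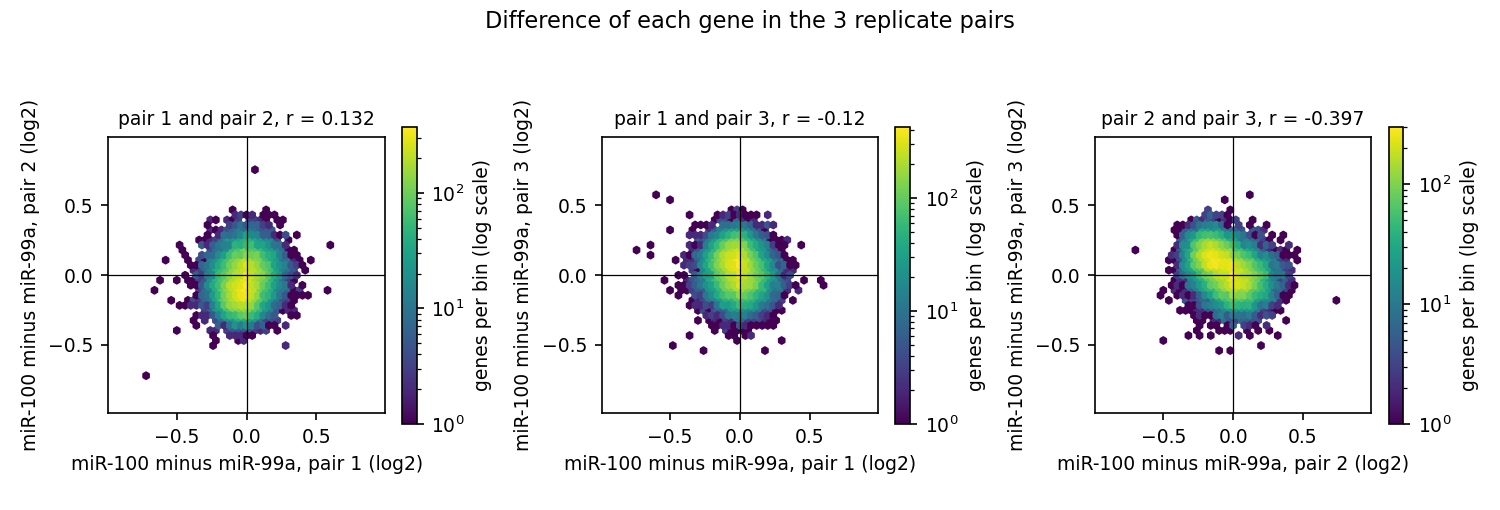
Each panel plots the log2 difference of every gene, miR-100 minus miR-99a, in 1 replicate pair against another, with colour for the number of genes per bin on a log scale. The clouds lie round zero, and that of pairs 2 and 3 slopes downwards (r = -0.397).

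A measure of RNA ends moved with the pairs. For the control transcript ACTB, the 3′ probe set exceeded the 5′ probe set by 2.83, 2.79 and 2.52 (log2) on the miR-100 arrays 1 to 3, against 2.64, 2.45 and 2.8 on the miR-99a arrays. For GAPDH the values were 0.61, 0.61 and 0.56 in miR-100, against 0.53, 0.56 and 0.71 in miR-99a. Both were higher in miR-100 in pairs 1 and 2 and lower in pair 3, where the median over all genes had the opposite sign. Their part in the differences of single genes was not tested.

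ND6 had the steadiest fall of the genes that passed. Its levels were 9.59, 9.57 and 9.38 in miR-100 cells, against 9.97, 9.91 and 9.82 in miR-99a cells. All miR-100 arrays lay below all miR-99a arrays, and the paired differences were -0.39, -0.34 and -0.44. The mean difference was -0.39 (95% interval -0.55 to -0.23, limma adjusted p = 0.024). The combination arrays held 9.72, 9.77 and 9.3, and the control arrays 10.06 and 9.95. The control levels thus lay nearer to those of miR-99a than to those of miR-100. With 3 pairs the smallest 2-sided p that an exact permutation test can give is 0.25, so the call rests on the spread shared over genes. The call was lost after quantile normalization (-0.37, limma adjusted p = 0.949) and without replicate 1 (-0.39, limma adjusted p = 1) or replicate 2 (-0.41, limma adjusted p = 0.107), where the difference did not shrink.

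ND6 is the only protein-coding gene on the light strand of the mitochondrial genome. Of 6 other mitochondrial genes, chosen after their values were seen, 5 had differences between -0.05 and 0.01, namely the complex I genes ND2 and ND4, the cytochrome oxidase genes COX1 and COX2, and the ATP synthase gene ATP6. The other one was COX3, also a cytochrome oxidase gene, whose levels were 10.69, 11.26 and 10.25 in miR-100, against 10.63, 10.5 and 10.44 in miR-99a. Its paired differences of 0.05, 0.76 and -0.19 disagreed in sign, and its mean difference of 0.21 did not pass (limma adjusted p = 1). The list of 68 nuclear-encoded genes of oxidative phosphorylation leaves out ND6 and the other mitochondrially encoded subunits. Of these 68 genes 0 passed, beside 0.0101% of all genes, and their median difference was 0.026.

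FOLR1, which encodes a receptor that takes up folate, had the smallest p of all genes, with pairs that disagreed. Its brighter probe set stood at 9.33, 9.2 and 8.94 in miR-100 cells, against 10.06, 9.92 and 8.77 in miR-99a cells. The paired differences were -0.73, -0.72 and 0.18, so the fall was found in pairs 1 and 2 and not in pair 3, and the arrays overlapped. The mean difference was -0.43 (95% interval -0.59 to -0.26, limma adjusted p = 0.00457). Tested on its own spread between pairs, FOLR1 had an unadjusted p of 0.293, and ND6 had 0.00539, in the same limma model without moderation. No gene passed that test after adjustment. The FOLR1 call was also lost after quantile normalization (-0.39, limma adjusted p = 0.999), and without replicate 3 its difference was -0.73.

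The other data on FOLR1 did not run the same way. The combination arrays held 9.52, 9.1 and 8.93, and the control arrays 9.57 and 9.89. The dimmer probe set of the gene read 5.67, 5.85 and 5.66 in miR-100, against 5.62, 5.57 and 5.51 in miR-99a, a difference of 0.16 that did not pass. The related receptor genes FOLR2 and FOLR3 differed by -0.06 and 0.04.

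**Figure D2:**
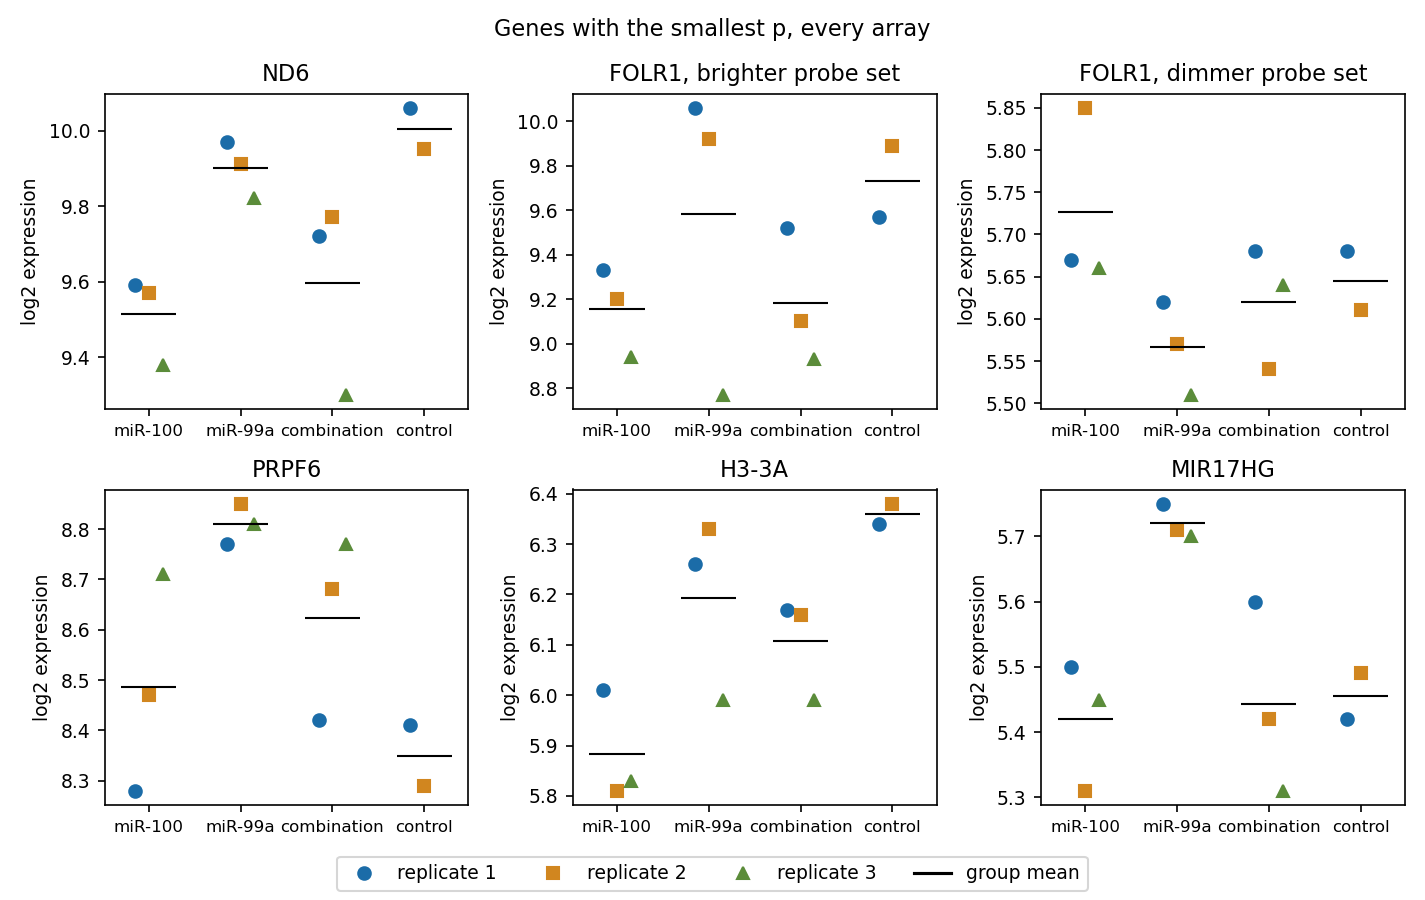
Log2 expression on every array (symbols by replicate number, bars for group means) of ND6, of both probe sets of FOLR1, and of PRPF6, H3-3A and MIR17HG. In ND6 the 3 miR-100 arrays (9.38 to 9.59) lie below the 3 miR-99a arrays (9.82 to 9.97), and in FOLR1 replicate 3 of miR-99a (8.77) lies below all miR-100 arrays.

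The genes next in order of p had adjusted values far from the threshold. PRPF6, a core component of the U4/U6-U5 spliceosomal particle, had 8.28, 8.47 and 8.71 in miR-100, against 8.77, 8.85 and 8.81 in miR-99a. Its difference was -0.32 without overlap (limma adjusted p = 0.619), and its dimmer probe set differed by -0.06. H3-3A, a gene of the replacement histone H3.3, had 6.01, 5.81 and 5.83 in miR-100, against 6.26, 6.33 and 5.99 in miR-99a, a difference of -0.31 with overlap (limma adjusted p = 0.721). Its level was below the median of the genes, 6.4, as was that of MIR17HG. MIR17HG, the host transcript of an oncogenic microRNA cluster, had 5.5, 5.31 and 5.45 in miR-100, against 5.75, 5.71 and 5.7 in miR-99a. Its difference was -0.3, and it was lower in miR-100 in all 3 pairs.

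The other genes with the smallest p in the lower direction were the dynein gene DNAH3 (-0.29), HINT3 (-0.27), the receptor gene GPR85 (-0.27), SPANXB1 (-0.26) and COLCA1 (-0.25). Of these, DNAH3 and HINT3 lay slightly above the median level of genes and COLCA1 further above it, with 9.51, 9.5 and 9.03 in miR-100, against 9.73, 9.73 and 9.33 in miR-99a. It was lower in every pair (-0.22, -0.23 and -0.3), while its arrays overlapped because both replicates 3 were lower. GPR85 differed by -0.3, -0.25 and -0.27 in the pairs at levels near 5. The other probe sets of these genes were closer to zero or of opposite sign, at -0.03 for COLCA1, 0.05 for GPR85, -0.04 and -0.08 for HINT3, and -0.04 to 0.12 for the 4 others of DNAH3. AKR1B10, an aldo-keto reductase gene, had paired differences of -0.2, -0.21 and -0.3. None of them passed.

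Differences in the higher direction were smaller, and 0 genes passed. The smallest p belonged to OR51E2, an olfactory receptor gene, with 5.7, 5.75 and 5.57 in miR-100, against 5.46, 5.35 and 5.46 in miR-99a. Its difference was 0.25, without overlap, whereas its other probe sets differed by -0.11 and 0.04. The histone gene H2AC17 also differed by 0.25, with paired differences of 0.58, 0.2 and -0.03.

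The other genes named in this direction were FAM124B (0.24), TRAM1L1 (0.24), LINC00314 (0.24), ATP8B1 (0.23), the angiopoietin receptor gene TEK (0.23), ZC3H7B (0.23), PRNT (0.23) and the cytokine gene IL36G (0.22). Of these, ATP8B1, a phospholipid flippase gene, and ZC3H7B, a zinc finger gene, were above the median level of genes. ATP8B1 had 8.09, 8.15 and 8.46 in miR-100, against 7.8, 7.85 and 8.35 in miR-99a, higher in every pair by 0.11 to 0.3. ZC3H7B had 8.7, 8.86 and 9.0 in miR-100, against 8.43, 8.46 and 8.98 in miR-99a. In both genes the arrays overlapped and pair 3 had the smallest difference. The other probe set of ATP8B1 differed by -0.08, the 4 others of ZC3H7B by -0.04 to 0.02, and the other set of TEK by 0.06. SCGB1D2 (0.21), AFDN-DT (0.2) and the taste receptor gene TAS2R38 (0.19) had the most even pairs, at levels of 5.13 to 5.54 in the group means.

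No reported target of the shared seed passed the test. Of 28 reported targets measured, 0 passed and 0 had an unadjusted p under 0.05, beside 0.0101% and 1.22% of all genes, shares at which a list of this size is not set apart by a count of 0. Their differences ran from -0.12 to 0.09 with a median of -0.027, beside a median of -0.007 over all genes. By pair the median was -0.068, -0.12 and 0.067, following the sign of all genes in each pair.

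MTOR, the kinase of both mTOR complexes, had 6.87, 6.88 and 7.36 in miR-100, against 6.86, 6.89 and 7.25 in miR-99a. Its difference was 0.04, with a 95% interval of -0.12 to 0.2. Replicate 3 was the highest array of MTOR in both treatments. RPTOR, the scaffold that defines mTOR complex 1, had 6.79, 6.81 and 7.0 in miR-100, against 6.83, 7.02 and 6.97 in miR-99a, a difference of -0.07 (-0.23 to 0.09). AKT1, a kinase upstream of that complex, differed by -0.11 (-0.27 to 0.05). IGF1R, the receptor for insulin-like growth factors, had 7.73, 7.98 and 8.35 in miR-100, against 7.92, 8.14 and 8.17 in miR-99a, and differed by -0.06 (-0.22 to 0.1) with pair 3 opposite to the others.

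Among nuclear targets, SMARCA5, the ATPase of ISWI chromatin remodellers, had 10.08, 10.16 and 10.52 in miR-100, against 10.21, 10.15 and 10.47 in miR-99a. Its difference was -0.03 (-0.19 to 0.14). SMARCD1, a SWI/SNF subunit, differed by -0.08 (-0.25 to 0.08), and BAZ2A, the large subunit of the nucleolar remodelling complex, by -0.09 (-0.25 to 0.07). The DNA damage kinase gene ATM differed by 0.02 and the mitotic kinase gene PLK1 by -0.04. FKBP5, which binds the cytosolic chaperone and lowers the steroid affinity of the glucocorticoid receptor, had 10.99, 10.74 and 10.99 in miR-100, against 10.9, 10.91 and 10.92 in miR-99a, a difference of -0.01 (-0.17 to 0.15).

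Among signalling targets, BMPR2, a receptor for bone morphogenetic proteins, differed by 0.03, PPP3CA, the calcineurin catalytic subunit, by -0.03, FGFR3, a growth factor receptor, by 0.02, and CTDSPL, a phosphatase, by -0.04. AGO2, the Argonaute that can cut its targets, had 8.44, 8.58 and 8.93 in miR-100, against 8.77, 8.63 and 8.86 in miR-99a, a difference of -0.11 (-0.27 to 0.05). TRIB2, a pseudokinase gene, was the only one of the 28 whose arrays did not overlap, with 5.56, 5.55 and 5.5 in miR-100, against 5.49, 5.47 and 5.48 in miR-99a. That difference was 0.06 (-0.1 to 0.22), and the share of 1 in 28 without overlap (3.57%) stood beside 4.66% of all genes. MBNL1, a splicing regulator, had the smallest p of the list at a difference of -0.12.

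**Figure D3:**
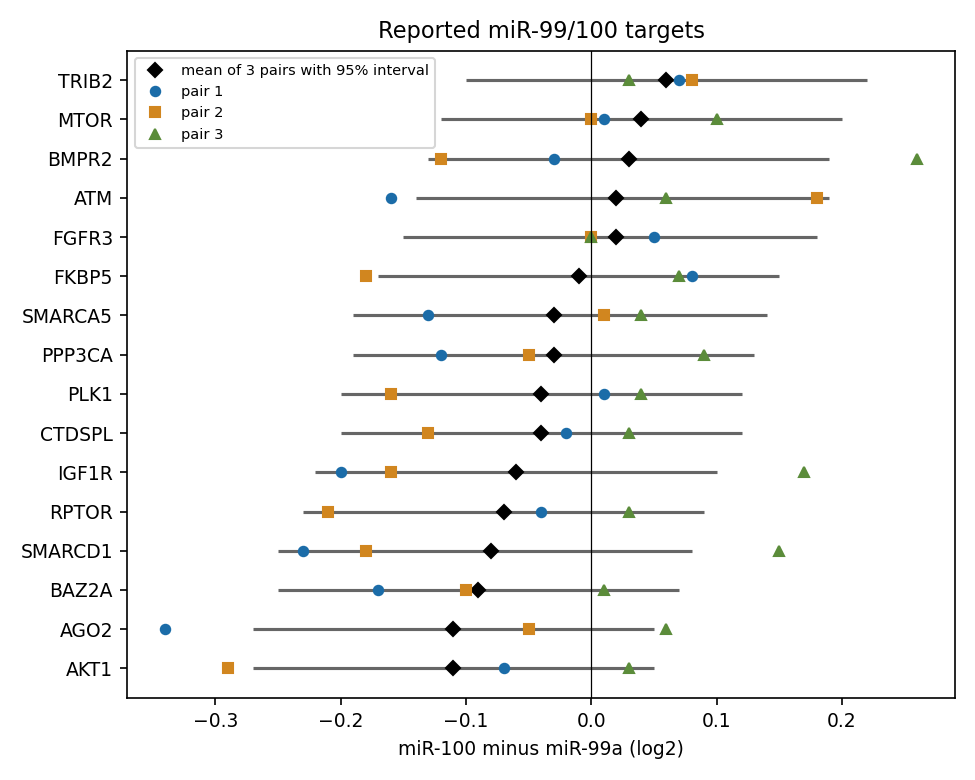
The log2 difference, miR-100 minus miR-99a, of 16 reported targets of the family, as the mean of the 3 pairs with its 95% interval (diamond, line) and as the value in each pair. All intervals cross zero, from AKT1 and AGO2 at -0.11 to TRIB2 at 0.06.

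Predicted targets gave the same count. Of 45 measured, 0 passed and 0 had an unadjusted p under 0.05, beside the same 0.0101% and 1.22% of all genes. Their median difference was -0.022, and the smallest p belonged to RRAGD, a Rag GTPase gene of the amino acid branch of mTOR signalling (-0.13), and ADCY1, an adenylate cyclase gene (0.12). Of 44 genes of the mTOR and PI3K pathway 0 passed, with a median of -0.023 and with SGK1, a kinase downstream of mTOR complex 2, at -0.15. Of 20 genes of the insulin-like growth factor axis 0 passed, with a median of -0.033. The insulin receptor gene INSR there differed by -0.1 and the adaptor gene IRS4 by -0.08.

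Targets of miR-125b, which both sides expressed, were likewise close. Of 37 reported targets measured 0 passed, and 1 had an unadjusted p under 0.05, beside 0.0101% and 1.22% of all genes. That gene was STAT3, a transcription factor activated by cytokines, with 7.51, 7.66 and 7.72 in miR-100, against 7.88, 8.01 and 7.66 in miR-99a. Its difference was -0.22 and pair 3 was opposite (0.06). The mean of the 4 probe sets of STAT3 differed by -0.07. SUV39H1, a histone H3 lysine methyltransferase gene, differed by -0.16.

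Genes of microRNA production and action did not pass, 0 of 39, beside 0.0101% of all genes. At that share a count of 0 does not set this list, or those that follow, apart from other genes. AGO1, an Argonaute gene, had 7.98, 7.67 and 7.48 in miR-100, against 7.92, 7.35 and 7.33 in miR-99a, a difference of 0.17, and AGO3 differed by -0.12. Of 31 microRNA host genes 0 passed. MIR99AHG, the host of miR-99a, had 6.24, 6.01 and 6.19 in miR-100, against 6.18, 5.91 and 5.95 in miR-99a, a difference of 0.13 (-0.03 to 0.3). MIR100HG, the host of miR-100, had 4.79, 4.7 and 4.89 in miR-100, against 4.92, 4.95 and 4.91 in miR-99a, a difference of -0.13 (-0.29 to 0.03) at the floor of the array. Host transcripts are distinct from the oligos, so these values do not measure the amount of microRNA delivered. Of 9 small nucleolar RNA host genes 0 passed, and GAS5, a growth arrest transcript, differed by 0.1.

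Genes tied to vincristine differed little. ABCB1, the drug efflux pump P-glycoprotein, had 6.63, 6.74 and 6.63 in miR-100, against 6.6, 6.57 and 6.69 in miR-99a, a difference of 0.05 (-0.11 to 0.21). ABCC1, another efflux pump, had 8.38, 8.59 and 8.83 in miR-100, against 8.5, 8.61 and 8.58 in miR-99a, a difference of 0.03. ABCB4, a phospholipid transporter, differed by -0.13 (-0.29 to 0.04) without overlap at levels of 5.43 to 5.61. Of 13 ABC transporters 0 passed, beside 0.0101% of all genes, with a median of 0.001.

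TUBB, the main beta tubulin gene and part of the drug's target, had 12.1, 12.04 and 12.06 in miR-100, against 12.19, 12.13 and 12.07 in miR-99a. Its difference was -0.06 (-0.22 to 0.1). STMN1, which destabilises microtubules, differed by -0.03, and the neuronal family member STMN2 by -0.15. Of 41 tubulin and microtubule genes 0 passed, beside 0.0101% of all genes. Of 22 genes of the BCL2 family, which set the threshold of apoptosis, 0 passed, and MCL1, a survival gene, differed by -0.05 (-0.21 to 0.11), with PMAIP1 and BCL2L1 at -0.11 and -0.1. Of 26 p53 targets 0 passed.

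Mitotic and DNA replication genes were level on average, with medians of opposite sign in pairs 2 and 3. Of 58 genes of the mitotic cell cycle 0 passed, beside 0.0101% of all genes, with a median of 0.005. By pair the median was 0.006, -0.118 and 0.107. MKI67, the gene of the Ki-67 proliferation antigen, differed by -0.12 and the checkpoint kinase gene TTK by -0.11. Of 53 DNA replication genes 0 passed, with a median of -0.01 and pair medians of -0.004, -0.149 and 0.125. Of 42 replication-dependent histone genes 0 passed, where the linker histone gene H1-2 differed by -0.23 with paired differences of 0.29, -0.51 and -0.48.

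Large groups of housekeeping genes had medians of opposite sign in pairs 2 and 3, as had genes at levels of 8 to 12 in general. Of all 19775 genes, 12467 were lower in miR-100 in pair 2 and 7074 in pair 3. All 75 mitochondrial ribosomal protein genes were lower in miR-100 in pair 2 and 0 were lower in pair 3, with medians of -0.2 and 0.158, against -0.015 in pair 1. Of 34 proteasome genes, 33 were lower in miR-100 in pair 2 and 1 in pair 3, with medians of -0.222 and 0.136. The 68 genes of oxidative phosphorylation had medians of 0.01, -0.157 and 0.219 in pairs 1 to 3. The 60 cytoplasmic ribosomal protein genes ran the other way, with 0.078, 0.038 and -0.068.

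Averaged over pairs, these lists lay near zero. Medians over the 32 lists ran from -0.045 for ATF4 and unfolded protein response genes to 0.026 for oxidative phosphorylation and myeloid markers. From any list 0 genes passed, beside 0.0101% of all genes. In the list with the lowest median, the chaperone gene HSP90B1 of the endoplasmic reticulum had 9.77, 9.68 and 10.02 in miR-100, against 9.91, 9.8 and 10.3 in miR-99a. It was lower in all 3 pairs (-0.18, unadjusted p = 0.0269 in the limma fit over the 6 arrays). All 42 genes of that list were lower in miR-100 in pair 2, and 8 were lower in pair 3.

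The remaining lists held no gene that passed, beside 0.0101% of all genes. Among 45 type I interferon genes OAS3, a sensor of double-stranded RNA, differed by -0.17 without overlap. Among 20 cholesterol synthesis genes the median was -0.024, with the master regulator gene SREBF2 at -0.11. The glycolytic gene PKM differed by -0.16 among 36 genes of glycolysis and hypoxia. NFKBIA, the inhibitor of NF-kB and a gene of both the glucocorticoid (20 genes) and NF-kB (31 genes) lists, differed by -0.11. PRPF3, a partner of PRPF6 in the same spliceosomal particle, differed by -0.17 among 56 core splicing factors. HSP90AB1, a cytosolic chaperone gene, differed by -0.09 among 32 heat shock and chaperonin genes.

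**Figure D4:**
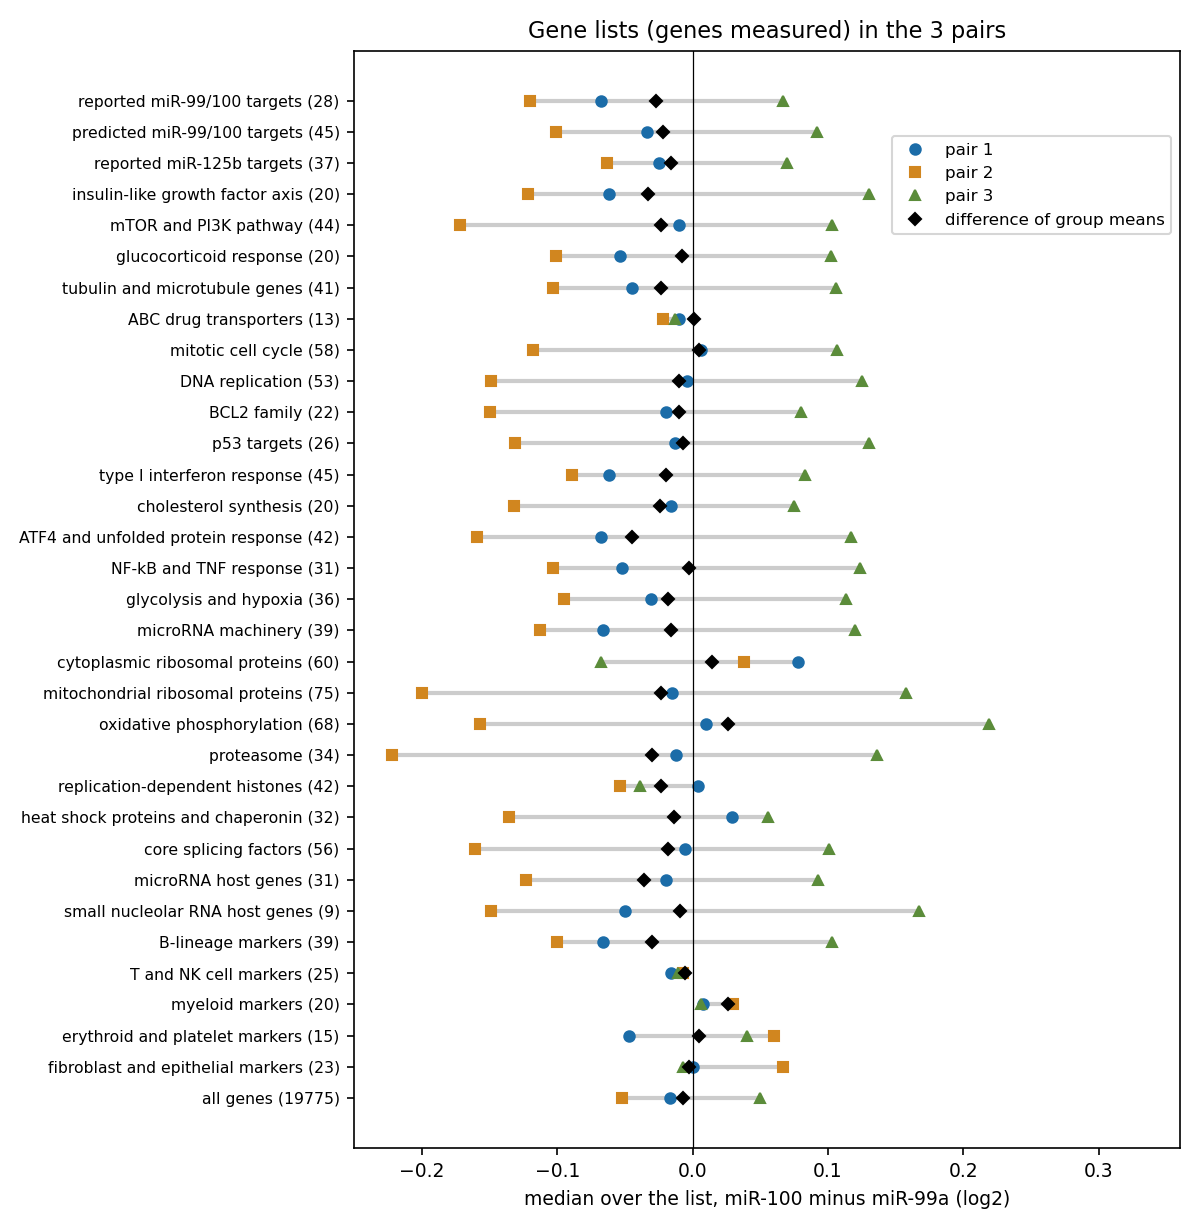
The median log2 difference, miR-100 minus miR-99a, of each gene list (number of genes measured in parentheses) in pairs 1, 2 and 3 and for the group means. Most lists lie left of zero in pair 2 and right of it in pair 3, with the mean within 0.045 of zero.

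Markers of the B lineage and of other cell types were at like levels in both groups. The summed linear levels of 39 B-lineage markers were 68038 to 72611 in miR-100, against 69580 to 73956 in miR-99a, and 33 of them lay above the median gene level. Markers of T and NK cells summed to 1726 to 1813 in miR-100, against 1729 to 1824 in miR-99a, over 25 genes of which 3 were above that median. Myeloid markers summed to 1144 to 1185 in miR-100, against 1140 to 1167 in miR-99a, erythroid and platelet markers to 933 to 973, against 920 to 965, and fibroblast and epithelial markers to 1457 to 1487, against 1449 to 1469. Sums of different lists hold different numbers of probe sets and are not compared with each other. The lists other than that of the B lineage each had 3 members above the median level. No marker of any list passed the test, beside 0.0101% of all genes. Among B-lineage markers CD9, a tetraspanin gene, had 8.31, 8.91 and 8.24 in miR-100, against 8.97, 9.04 and 8.1 in miR-99a, a difference of -0.21 with pair 3 opposite. The mean of the 3 probe sets of CD9 differed by -0.04. The kinase gene LYN differed by -0.15.

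Testing each of 41091 probe sets on its own gave more falls. Before adjustment, 720 sets were lower and 300 higher in miR-100 at a limma p under 0.05. Over genes these counts were 122 and 120. In miR-100 cells 24 probe sets of 21 genes were lower (0.0584% of the sets) and 0 were higher, with differences of -0.34 to -0.63 in limma's test adjusted over all sets. Of these, 22 were lower in all 3 pairs, a count that follows in part from their choice as sets that fell. Over all genes, each by its brightest set, 8.07% were lower in all 3 pairs, a share not taken over all probe sets. Of the 24 sets, 22, of 19 genes, were not the brightest probe set of their gene. The brightest sets of the same 19 genes differed by only -0.09 to 0.03. Probe sets of 1 gene read different stretches or isoforms, so such a set need not follow the gene's main transcript. The genes below were chosen after these values were seen.

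The largest fall was in a probe set of ARHGAP5. It stood at 6.5, 6.37 and 6.79 in miR-100, against 6.97, 7.16 and 7.43 in miR-99a (-0.63, limma adjusted p = 4.94e-10 over all probe sets). The groups did not overlap, whereas the control arrays, at 7.11 and 5.89, spanned all miR-100 values. The brightest set of the gene differed by -0.09 and the other 3 sets by -0.1 to -0.02.

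CDK6, a G1 cyclin-dependent kinase that is prominent in lymphoid leukaemia, had 7 probe sets. All 7 had a lower mean in miR-100, with differences of -0.4 to -0.01. The sets that passed are counted in the 7. Over all genes, each by its brightest set, 54.6% had a lower mean in miR-100. That share was not taken over all probe sets, and sets of the same gene are not independent of each other. The set that fell most had 7.26, 6.91 and 7.09 in miR-100, against 7.54, 7.49 and 7.44 in miR-99a (-0.4, limma adjusted p = 0.00325 over all probe sets). Another fell by 0.35 on the log2 scale. The brightest set had 11.61, 11.46 and 11.7 in miR-100, against 11.58, 11.63 and 11.68 in miR-99a, and differed by -0.04.

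MALAT1, an abundant nuclear long noncoding RNA, had 12 probe sets, of which 3 passed, at -0.42, -0.41 and -0.36. Counting these, 11 of the 12 had a lower mean in miR-100, beside 54.6% of all genes, each by its brightest set. The set at -0.41 read 12.02, 11.64 and 11.84 in miR-100, against 12.39, 12.24 and 12.1 in miR-99a. The brightest set read 13.39, 13.45 and 13.16 in miR-100, against 13.3, 13.28 and 13.47 in miR-99a, and differed by -0.02. For DNTT, which adds untemplated bases at V(D)J joints of immature lymphocytes, the dim set that fell read 6.96, 6.93 and 6.8 in miR-100, against 7.38, 7.76 and 6.9 in miR-99a. Its brightest set, near 13, differed by -0.01.

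JAK1, a cytokine receptor kinase, and DDX6, an RNA helicase of the microRNA repression pathway, each had 1 set that fell, by 0.37 and 0.39 on the log2 scale. Their brightest sets differed by -0.03 and 0.02. The other genes with such sets were CD47, CEP350, DGKH, DNAJC3, GUSBP4, HNRNPH1, LPGAT1, PCLO, TAOK1, TBL1XR1, UBA6, UHMK1 and VPS35. Over the 22 sets that were not the brightest of their gene, the median level was 7.31 and the median paired differences were -0.48, -0.4 and -0.23. The mean of miR-100 was below that of the control in 20 of the 22, and the mean of miR-99a in 3. Both counts follow in part from the choice of these sets as lower in miR-100 than in miR-99a. No such share was taken over all probe sets.

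The control arrays also differed in these sets. The control array numbered 1 exceeded the control array numbered 2 in 20 of the 22 sets, and in 11 the 2 control arrays differed by more than did the treatments. The arrays of both treatments did not overlap in 13 of them, a count that follows in part from their choice as sets that fell. Over all genes, each by its brightest set, 2.25% were lower in miR-100 without overlap. That share was not taken over all probe sets. Whether the spread seen between control arrays bears on these calls was not tested.

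**Figure D5:**
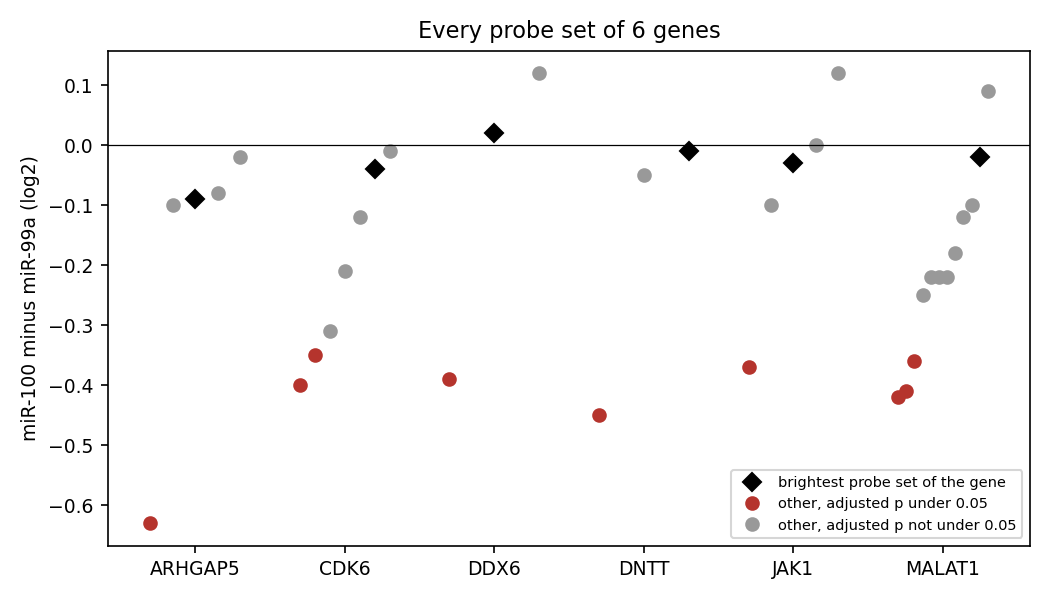
The log2 difference, miR-100 minus miR-99a, of every probe set of ARHGAP5, CDK6, DDX6, DNTT, JAK1 and MALAT1, with the brightest set of each gene as a diamond and sets with an adjusted p under 0.05 in red. The red sets lie between -0.35 and -0.63 while all diamonds lie between -0.09 and 0.02.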

How the data were processed

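Total RNA was labelled with Affymetrix one-cycle kits, per the labels' protocols. The values deposited by the authors run from 4.398 to 14.839 and were taken as log2. Their summarisation, background and normalization are not stated in any label, so differences they leave between arrays remain in the values. Of 54675 probe sets, 1801 with several genes and 11777 without a gene were left out, and controls of the array too, which left 41091. Gene identifiers of 41037 matched RefSeq (GRCh38.p14). Where a gene had several probe sets, the brightest by mean over all 11 arrays stood for it. This left 19775 genes, 9252 of them with a single set. No filter on dim genes was applied.

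The 3 miR-100 and 3 miR-99a arrays were fitted with limma 3.58.1 in R 4.3.3 (lmFit, eBayes), with the replicate number as a block. P-values are 2-sided and adjusted by Benjamini-Hochberg over all genes, and genes under 0.05 were called. The moderation found no more variation between genes' variances than 2 residual degrees of freedom give, so every gene got the same standard error. The script was tested on simulated data with the same spread for every gene. That test does not bear on calls of genes whose own spread differs. The pairing comes from the replicate numbers in the titles. After group means were removed, same-numbered arrays correlated at 0.645, 0.297 and 0.694 across genes, all above the minimum of 0.1. Replicate 2 of miR-100 correlated at 0.383 with replicate 1 of miR-99a, above its own 0.297. Replicate 1 of miR-100 correlated at 0.358 with replicate 2 of miR-99a. This minimum thus does not tell the numbers 1 and 2 apart. The number of arrays limits the precision.

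The comparison, the 32 gene lists, written from general knowledge, and the tests were chosen with earlier results of these data known. The text names the 10 smallest p-values in each direction, called genes first, up to 5 genes each way with the largest smallest paired difference, a fixed set of reported targets, drug-related genes and host genes, and, per list, any called members, or else its 2 lowest p-values. Others are said to be chosen later. In all, 11 alternatives were planned and 1, each gene's own spread, was added after seeing the data. MicroRNA sequences are from RefSeq, and differences between them were read by script.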

Additional observations from a re-analysis of the deposited data

How the results depend on the processing

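The 2 genes lower in miR-100 were called with the replicate block on 6 arrays, and again (2 lower, 0 higher) with the block on the 9 treated arrays. No gene was called higher or lower (0 each) without the replicate block on 6 arrays or on all 11, after quantile normalization, among the 9888 genes at or above the median level, with the mean of all probe sets of a gene, with trend and robust moderation, or with each gene's own spread, the setting added after seeing the data. Genes with an unadjusted p under 0.05 numbered 107, 194, 786, 35, 326, 440 and 553 in these settings, in that order, against 242 in the fit reported. The lowest adjusted p of any gene was 0.052 among the brighter genes. Testing every probe set called 24 lower. Before adjustment 1020 sets were under 0.05, of which 720 were lower and 300 higher in miR-100.

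Leaving out 1 pair gave 0 to 2 genes higher and 0 to 7 lower. Without replicate 1 none was called, and 84 had an unadjusted p under 0.05. Without replicate 2 LINC01222 was called lower (422 under 0.05). Without replicate 3 COX3 and H2AC17 were called higher and CD9, FOLR1, GABPB1-IT1, H3-3A, ND6, PRPF6 and STAT3 lower (1753 under 0.05). The median absolute difference was then 0.0721, against 0.0397 with all pairs. FOLR1 then had -0.73 and a limma adjusted p of 9.33e-14, against -0.27 without replicate 1 and -0.28 without replicate 2, and was not called in either. The adjusted p of FOLR1 ran from 9.33e-14 to 1 over the alternatives, and that of ND6 from 0.00436 to 1. The cause was not tested.

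Of 1200 values of the 103 named genes under the alternatives, 1151 kept direction and side of the threshold, 18 lost and 5 gained a call, and 26 uncalled values changed sign. Only ND6 and FOLR1 were called in the fit reported, so the 18 lost calls were theirs. Most of the 1151 values were of uncalled genes that stayed uncalled, which says little about how stable a call is. No called value reversed. Of 384 list medians, 377 moved by less than the SD of the pair medians. With 3 pairs and probe sets of unequal affinity, differences under about 0.162 cannot be told from zero for a single gene in this fit, even before adjustment. That bound rests on the standard error common to all genes. On each gene's own spread, the standard error was 0.3 for FOLR1 and 0.03 for ND6. After adjustment over all genes some larger differences did not pass either, such as PRPF6 at -0.32 (limma adjusted p = 0.619).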
